A study of Homo sapiens with 63 samples.

Results

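Where an mRNA sits in a sedimentation gradient was compared inside the log phase gradient of HEK293 cells, a human embryonic kidney cell line, by setting fractions 18 to 22 against fractions 13 to 17. The fractions were taken by their numbers in the labels, not by their values. They are 10 of the 63 samples of the series, 5 on each side. The cells grew in DMEM with FBS and antibiotics, with both serum and amino acids present, and were treated with cycloheximide before harvest. Cycloheximide was also in the wash and lysis buffers. The other gradients, used here only for a side-by-side reading, came from cells kept 2 h without serum (but with amino acids) or 1 h in EBSS with MEM vitamins and FBS (without amino acids), with the same cycloheximide treatment. Since each condition was run as 1 gradient, nothing here has been repeated and p-values cannot be given.

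Cycloheximide stops ribosomes on the mRNA during elongation, so that a lysate keeps the number of ribosomes that each mRNA carried. In a sucrose or similar gradient an mRNA with many ribosomes sediments further than one with few. The number of ribosomes that an mRNA can hold depends on the length of its coding sequence, on how often translation starts and on how fast it runs. Whether fraction 22 or fraction 3 was the heavy end is not stated in the labels, and positions are therefore named by fraction number alone. The libraries were stranded and made from poly(A)-selected RNA, which leaves out transcripts that lack such a tail.

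The table gives 1 value per gene and fraction, in a unit called signal here. The authors' name for it is TPM, a unit per transcript length, which is the basis for setting values of different genes side by side. The most abundant member of a list is the one with the highest mean value over the 10 fractions, after the rescaling described next. Each fraction counts equally in that mean, whatever its total signal. It therefore ranks mean shares in these fractions and not amounts of mRNA in the cell. After spike-in rows were taken out, each fraction was rescaled to a total of 1000000, so a value is a gene's share of the signal of that fraction and not an amount. A gene's share falls in a fraction either with less of its own mRNA or with more of others, and these cannot be told apart. The difference of a gene is the mean of log2(value + 1) over fractions 18 to 22 minus the same mean over fractions 13 to 17, so it is positive where the gene is higher in 18 to 22, and the added 1 understates the difference of low genes. Of 11074 genes in the table, 8243 had a mean of 5 or more over the 10 fractions and were compared, and 2831 did not. A gene counts as higher or lower where the difference is at least 1 in size on the log2 scale and no fraction of one pool overlaps the other pool. This is a rule of size, not a test. The 5 fractions of a pool are neighbouring cuts of 1 lysate and not replicates, and an SD over them describes how a value varies along the gradient. All coordinates, and the stretches of 30 bases printed for 8 genes, come from RefSeq tables on GRCh38.p14.

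Total gene signal, before rescaling, ran between 1543129 and 66981627 in fractions 18 to 22, against 11270466 to 55162375 in fractions 13 to 17, with the lowest in fraction 22. The numbers of reads are unknown, so no counting error is attached to any value. ERCC spike-in RNA took 0.0226% to 0.125% of the signal in fractions 18 to 22, against 0.0341% to 0.0735% in fractions 13 to 17. The labelled cell line was checked with 9 marker genes of HEK293, of which 7 were in the table (VIM, KRT8, KRT18, NEFM, NEFL, INA and LIN28B). Their summed value ran from 939 to 7524 in fractions 18 to 22, against 333 to 645 in fractions 13 to 17. Of 12 markers of other cell types only HBA1 was in the table, with 0 to 1.68 in fractions 18 to 22, against 0.889 to 2.87 in fractions 13 to 17.

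The starts of 8 genes are shown first, because mRNAs of the same class lay on opposite sides of this comparison. Many mRNAs of the translation machinery begin with a C and a run of pyrimidines, the terminal oligopyrimidine (TOP) tract, through which growth signals control their translation. Each line gives 10 bases before the annotated start and 20 bases from it, 5′ to 3′, with the pyrimidine run that begins at the start in capitals. The first 4 were higher in fractions 18 to 22 and the last 4 lower.
RACK1: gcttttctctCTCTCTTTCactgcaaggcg
EEF2: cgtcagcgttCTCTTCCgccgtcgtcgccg
BTF3: cttccggcctCCCTTTagctgccatcttgc
EEF1A1: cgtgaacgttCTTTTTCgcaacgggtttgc
RPL39: ccgccagcttCCCTCCTCTTCCTTTCTCCg
RPL29: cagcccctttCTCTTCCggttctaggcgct
RPS27: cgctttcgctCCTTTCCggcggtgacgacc
RPL41: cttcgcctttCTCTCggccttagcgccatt
In GRCh38.p14 these stretches lie, for the genes that were higher, with RACK1 at chr5:181243887-181243916 (minus strand), EEF2 at chr19:3985444-3985473 (minus strand), BTF3 at chr5:73498432-73498461 (plus strand) and EEF1A1 at chr6:73521013-73521042 (minus strand). For the genes that were lower, the stretches are RPL39 at chrX:119791611-119791640 (minus strand), RPL29 at chr3:51995876-51995905 (minus strand), RPS27 at chr1:153990752-153990781 (plus strand) and RPL41 at chr12:56116623-56116652 (plus strand). All span the annotated first base of the 5′ exon.

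Of the 8243 genes, 1989 were higher in fractions 18 to 22 (24.1%) and 1427 lower (17.3%), while 4827 met the rule in neither direction. The median difference over all genes was 0.22, with quartiles of -0.79 and 1.16, and single genes ran from -2.69 to 3.86. Differences of 2 or more in size among them were more frequent on the positive side, with 592 genes higher and 180 lower. The split between higher and lower depends on the scale of the fractions. Higher genes made up 58.2% of those past the rule on shares of each fraction, 42.1% after centring on the median gene (1367 higher, 1882 lower), 52.9% under median-of-ratios scaling (1846 and 1642), 94.0% when each fraction was scaled by its ERCC sum (1246 and 80) and 2.74% on the deposited values (2 and 71). The median of all genes was 0.63 under the ERCC scaling, 0.14 under median-of-ratios scaling and -0.12 on the deposited values. A factor applied to a whole fraction moves all its genes by the same amount, apart from the added 1, so gene groups are read against the median of all genes.

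Neighbouring fractions were alike in composition and distant ones less so. Pearson's r of log2 values across the 8243 genes, which are not independent, was 0.97 to 0.99 between neighbouring fractions and 0.51 between fractions 13 and 22. The single fraction that most often held a gene's highest value was 13, with 1466 genes (17.8%), followed by 22 with 1389 (16.9%) and 19 with 1237 (15.0%). Of the higher genes, 1446 had their highest value in fraction 21 or 22, 543 in 19 or 20 and 0 in 18. Of the lower genes, 707 had it in fraction 13, 473 in 14 and 247 in 15 to 17. A steady course was less usual, since 151 genes rose at every step between fractions 13 and 22 and 250 fell at every step. Counted over all genes, 1508 were highest in fractions 16 to 18, across the border of the pools, and 1398 of these met the rule in neither direction. Fraction 16 held 840 of the 1508, while its neighbours 15 and 17 held the highest value of 264 and 296 genes.

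**Figure D1:**
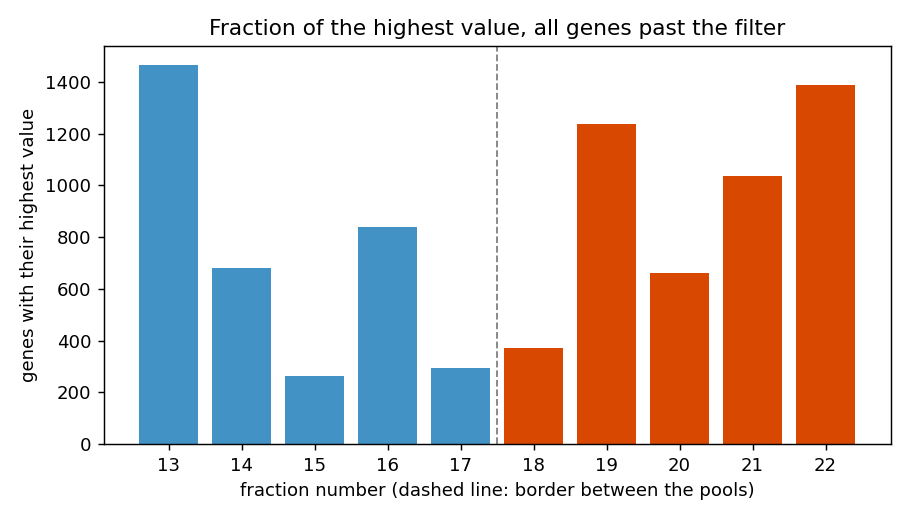
Number of genes (vertical axis) that had their highest share of signal in each fraction (horizontal axis, fraction number), over the 8243 genes compared, with fractions 18 to 22 in orange and fractions 13 to 17 in blue. The bars for fractions 13 and 22 stand at 1466 and 1389 genes, and those between 16 and 18 hold 1508 together, 840 of them in fraction 16.

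Enzymes of glycolysis, which break glucose down to pyruvate and lactate, stood far to the side of fractions 18 to 22. Of 16 members compared, 14 were higher and 0 lower, with a median difference of 2.20 against 0.22 over all genes. PGK1 (chrX:78104248-78129295), which makes ATP from bisphosphoglycerate, had the highest difference of the named genes at 3.86. Its value was 149.8, 292, 763, 1477 and 1511 in fractions 18 to 22, against 20.8, 32.2, 39.2, 51.3 and 76.4 in fractions 13 to 17. The lowest value in 18 to 22 was above the highest in 13 to 17, and the value climbed at each of the 9 steps. GAPDH (chr12:6534517-6538371), the enzyme one step before it, had 2061, 3999, 8171, 10460 and 9218 in fractions 18 to 22, against 307, 395, 476, 678 and 1074 in fractions 13 to 17, a difference of 3.45 with its highest value in fraction 21. ENO1, the enolase, reached 1502, 2732, 5538, 9448 and 10720 in fractions 18 to 22, against 254, 365, 453, 612 and 899.6 in fractions 13 to 17. Both pools were again apart, and the pool means of ENO1 were 5987 ± 4039 in fractions 18 to 22 and 517 ± 251 in fractions 13 to 17 (SD over 5 fractions each). PKM, the pyruvate kinase, differed by 2.71, HK1, the first kinase of the path, by 2.34, and LDHA, which makes lactate, by 1.62. TPI1, the triose phosphate isomerase, was the exception with 1870, 1815, 1690, 1288 and 1199 in fractions 18 to 22, against 1868, 1857, 1677, 1742 and 1728 in fractions 13 to 17. Its pools overlapped and its difference was -0.20, with a sign that turns under the ERCC scaling.

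**Figure D2:**
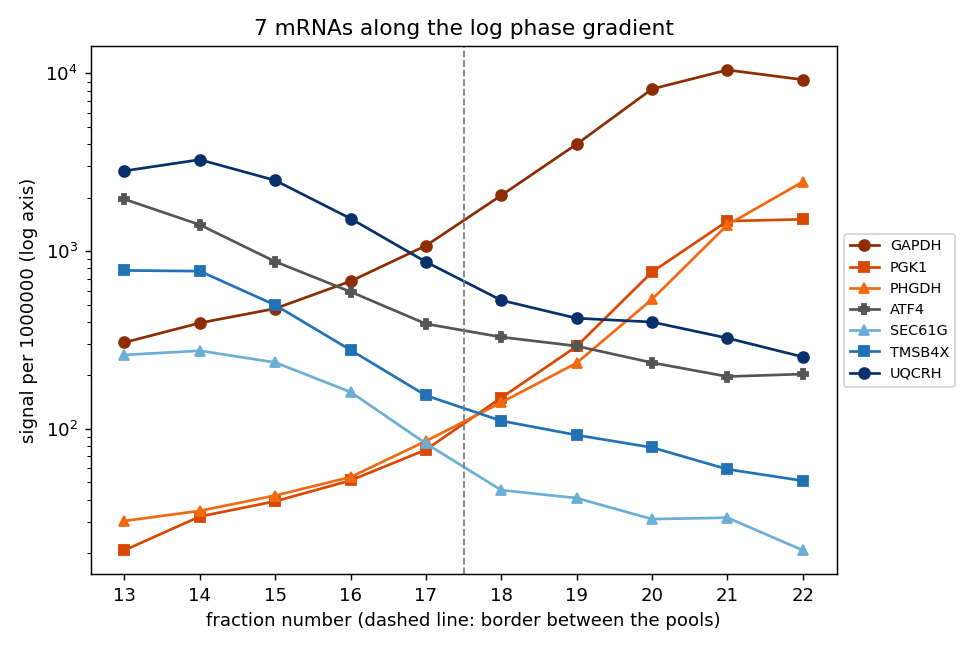
Share of signal (vertical log axis, signal per 1000000) of 7 mRNAs in each fraction (horizontal axis, fraction number) of the log phase gradient, with a dashed line between the pools. PGK1, PHGDH and GAPDH climb toward fractions 21 and 22, while UQCRH, TMSB4X, SEC61G and ATF4 are highest in fraction 13 or 14 and lowest in fractions 21 or 22.

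Enzymes of serine and one-carbon metabolism, which feed purine and thymidylate synthesis, followed with 10 of 14 higher, 1 lower and a median difference of 1.91. PHGDH (chr1:119711934-119744215), the first enzyme of serine synthesis, had 141, 235, 536, 1406 and 2455 in fractions 18 to 22, against 30.4, 34.6, 42.2, 53.6 and 85.5 in fractions 13 to 17. The pools did not overlap, and the value of fraction 22 was the highest of all, for a difference of 3.61. Members that were also higher included ASNS (2.95), PAICS (2.94), GART (2.53) and SHMT2 (2.47). ASNS is the asparagine synthetase, PAICS and GART act in purine synthesis, and SHMT2 is the mitochondrial serine hydroxymethyltransferase. The other enzymes of the serine path itself went elsewhere. PSAT1, the aminotransferase, had a difference of -0.38 and met the rule in neither direction. PSPH, the phosphatase of the last step, was lower, with 17.1, 12.2, 9.93, 8.46 and 6.21 in fractions 18 to 22, against 38.0, 32.1, 27.1, 28.6 and 21.6 in fractions 13 to 17. Its pools were apart, with a difference of -1.42.

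Cytosolic aminoacyl-tRNA synthetases, which charge tRNAs with amino acids, were higher for 18 of 23 members and lower for 1, with a median of 1.81. FARSA, a subunit of the phenylalanine enzyme, had 103, 179, 403, 728 and 825 in fractions 18 to 22, against 37.7, 38.8, 39.8, 52.3 and 64.1 in fractions 13 to 17. Its pools lay apart with a difference of 2.87, followed by SARS (2.83), NARS (2.59) and HARS (2.58), the serine, asparagine and histidine enzymes. YARS, the tyrosine enzyme and the most abundant of the list, peaked earlier, with 398.8, 529.5, 551, 471 and 429 in fractions 18 to 22, against 106, 123, 153, 232 and 271 in fractions 13 to 17. The lower member was EEF1E1, a small scaffold protein of the synthetase complex and not an enzyme, with 101, 66.1, 47.3, 49.5 and 45.5 in fractions 18 to 22, against 142, 145, 151, 132 and 129.8 in fractions 13 to 17. Its pools did not overlap and its difference was -1.23.

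Heat shock chaperones, which fold and refold proteins in the cytosol and the mitochondria, were higher for 17 of 22 members and lower for 1, with a median of 2.33. HSPA1A (chr6:31815543-31817942), the stress-inducible HSP70, had 77.1, 126, 231, 700.4 and 2044 in fractions 18 to 22, against 15.1, 18.02, 26.2, 30.3 and 50.7 in fractions 13 to 17. The step from fraction 21 to fraction 22 was steep, and the difference was 3.58. HSPA1B, a near-identical neighbour of HSPA1A, had 3.28, but reads of the pair can be split between them in quantification, so neither value is certain alone. HSPA8, the constitutive HSP70 and the most abundant of the list, had 414, 577, 1071, 3021 and 6098 in fractions 18 to 22, against 178, 239, 240.1, 278 and 319 in fractions 13 to 17. The range of its fractions 18 to 22 began above the range of 13 to 17, with a difference of 2.46. The HSP90 genes HSP90AA1 and HSP90AB1 differed by 2.63 and 2.38, DNAJA1, an HSP40 co-chaperone, by 3.37, and HSPD1, the mitochondrial HSP60, by 2.58. Several members were not higher. HSPE1, the HSP10 partner of HSPD1, had a difference of -0.82, HSPB1, a small heat shock protein, had -0.15, and DNAJB6, another HSP40, was lower at -1.31.

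The TRiC/CCT chaperonin, a ring of 8 kinds of subunit that folds actin and tubulin, had the highest list median, 2.57, with 7 of 8 members higher and 0 lower. CCT5 had 338, 648, 1326, 2428 and 2496 in fractions 18 to 22, against 98.3, 115, 124, 156 and 195 in fractions 13 to 17, with the pools apart and a difference of 3.06. The other subunits that were higher were CCT2 (3.03), CCT3 (2.81), CCT7 (2.69), CCT4 (2.44), CCT6A (2.27) and CCT8 (2.20). TCP1, the subunit CCT1, was the exception, with 1325, 1431, 1140, 867 and 829.8 in fractions 18 to 22, against 301, 461, 637, 959.5 and 1076 in fractions 13 to 17. Its pools overlapped, its value was highest in fraction 19 and its difference was 0.82. The mRNAs of actin and tubulin lay on the same side. TUBB4B and TUBA1C, a beta and an alpha tubulin, differed by 3.26 and 3.24, and ACTG1 and ACTB, the cytoplasmic actins, by 2.77 and 1.99. Reads of tubulin paralogs can be shared, so single tubulin values are uncertain. In the list of actin, tubulin and their binding proteins, 8 of 15 members were higher and 2 lower, and the lower ones were the actin-binding peptides TMSB4X (-2.46) and TMSB10 (-2.38).

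Chaperones of the endoplasmic reticulum were higher for 9 of 16 members and lower for 0, with a median of 1.22. The named members higher were PDIA3, a disulfide isomerase, at 2.20, HSPA5, the lumenal HSP70, at 2.06, and CALR, the lectin chaperone calreticulin, at 2.001. CALR had 117, 195, 239, 291 and 286 in fractions 18 to 22, against 42.8, 43.3, 51.1, 64.4 and 67.8 in fractions 13 to 17. Its 5 values in 18 to 22 were all above those of 13 to 17. HERPUD1, which acts in degradation at this membrane, had a difference of -0.94. Its pools did not overlap, but the difference was too small for the rule.

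In the proteasome, the 19S cap and the 20S core had unequal medians, 2.00 and 0.95. Of the 19S subunits 13 of 18 were higher and 1 lower, and of the 20S subunits 5 of 14 were higher and 0 lower. The difference between the lists was not tested. PSMD3, a scaffold of the cap, had 194, 304, 464, 517 and 445 in fractions 18 to 22, against 27.1, 34.6, 49.2, 72.5 and 114 in fractions 13 to 17, for a difference of 2.78 between pools that lay apart. PSMB4, a core subunit, peaked in fraction 20, with 678, 965, 1253, 939 and 775 in fractions 18 to 22, against 141, 175, 222, 285 and 448 in fractions 13 to 17 and a difference of 1.94. PSMB1, the most abundant core subunit, differed by 1.23 but its pools overlapped. PSMD7, a cap subunit, was the lower one at -1.14.

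Genes that act on RNA were on the side of 18 to 22 as well. DEAD/H-box helicases, which unwind RNA, were higher for 26 of 45 members and lower for 0, with a median of 1.70. DDX5 had 254, 387, 742, 1689 and 2439 in fractions 18 to 22, against 43.1, 62.6, 86.6, 119 and 175 in fractions 13 to 17. Its pools were apart by a wide gap and its difference was 3.17. DDX39B, an mRNA export helicase, peaked in fraction 19 and differed by 1.70, while its paralog DDX39A had -0.57 with overlapping pools. Of the hnRNP proteins, which bind nascent transcripts, 13 of 21 were higher and 0 lower, with a median of 1.39. HNRNPH2 and HNRNPA2B1 differed by 3.09 and 2.96. HNRNPA1, the most abundant, peaked across the border, with 5130, 4752, 4084, 3085 and 2802 in fractions 18 to 22, against 2074, 3118, 3552, 4220 and 4595 in fractions 13 to 17. Its difference of 0.19 met the rule in neither direction and its sign depends on the scaling. NCL, the nucleolar protein nucleolin, had 431, 901, 1761, 2727 and 2600 in fractions 18 to 22, against 63.6, 81.1, 118, 192 and 264 in fractions 13 to 17 and differed by 3.44.

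Splicing factors were more mixed. In a list of CLK kinases, LUC7-like factors and other splicing regulators 5 of 12 were higher and 0 lower, with a median of 1.33; the list also holds the helicases DDX5 and DDX17, which are counted among the DEAD/H-box helicases too. Its higher members include DDX5 (3.17), LUC7L2 (2.86), LUC7L3 (2.07) and LUC7L (1.93), and CLK1 had -0.50. Of the SR proteins 4 of 12 were higher and 0 lower, with a median of 0.46 that turns negative on the deposited values. SRSF4 differed by 2.05. SRSF3, the most abundant, had 2108, 1805, 1421, 950.1 and 861 in fractions 18 to 22, against 734, 1154, 1399, 1616 and 1874 in fractions 13 to 17. It was highest in fraction 18 and its pools overlapped, with a difference of 0.06 whose sign depends on the scaling and on the fractions kept.

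Genes of DNA replication and mitosis, both active in dividing cells, were split by member. In the list of the MCM helicase and S phase enzymes 17 of 29 were higher and 1 lower, with a median of 1.87. MCM7, a subunit of the replicative helicase, had 139.8, 216, 391, 1170 and 2508 in fractions 18 to 22, against 76.8, 71.1, 79.3, 95.2 and 102 in fractions 13 to 17, a difference of 2.59. Its fraction 22 was far above the rest. All 6 MCM subunits were higher, with MCM5 (2.55), MCM6 (2.54), MCM4 (2.32), MCM3 (2.19) and MCM2 (2.14) beside MCM7. The RPA complex, which coats single-stranded DNA, was divided: RPA1, the large subunit, differed by 2.62, RPA2 by -0.53 without meeting the rule, and RPA3, the small subunit, was lower at -1.58. Among mitotic genes 11 of 24 were higher and 2 lower, with a median of 1.14. CDC20, an activator of the anaphase-promoting complex, had 193, 319, 639.8, 1056 and 1218 in fractions 18 to 22, against 39.3, 59.2, 60.4, 89.2 and 124 in fractions 13 to 17 and differed by 2.98. The lower members were BIRC5 (-1.65), the inner centromere protein survivin, and UBE2C (-1.60), a small ubiquitin-conjugating enzyme.

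Several metabolic and signalling lists had medians between 0.54 and 0.93, against 0.22 over all genes. Over all genes 24.1% were higher and 17.3% lower. Of the cholesterol and fatty acid enzymes 10 of 26 were higher and 1 lower (median 0.93), with HMGCS1, an early enzyme of sterol synthesis, at 2.82. Lysosomal genes were higher for 8 of 24 and lower for 0 (median 0.54), led by PSAP, the precursor of the saposins, at 2.47. Targets of NFE2L2, a factor of the oxidative stress response, were higher for 6 of 18 and lower for 3 (median 0.73). In that list PGD, of the pentose phosphate path, had 2.57 and TXN, the small protein thioredoxin, -1.30. Amino acid transporters were higher for 2 of 10 (20.0%, below the share over all genes) and lower for 1 (median 0.65). SLC1A5, a glutamine carrier, had 1.65. Immediate early genes were higher for 4 of 15 (26.7%, near the share over all genes) and lower for 1 (median 0.57). There, JUN had 136, 243, 297, 305 and 223 in fractions 18 to 22, against 24.8, 23.01, 31.4, 54.1 and 76.9 in fractions 13 to 17 with pools apart, and MYC differed by 1.63, while BTG1, an anti-proliferative gene, was lower at -1.70. The MTRNR2L genes are near-copies of mitochondrial ribosomal RNA and their values are uncertain. They had a median of 2.08, with 1 of 4 higher.

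Among further genes with the highest differences, VIM, the intermediate filament vimentin and a marker of these cells, had 198, 392, 775, 1503 and 1927 in fractions 18 to 22, against 38.98, 50.5, 62.4, 89.6 and 111 in fractions 13 to 17. The pools lay apart, for a difference of 3.40. TRIM28, a corepressor, differed by 3.34, LMNB1, the nuclear lamin B1, by 3.36, ALDH2, the mitochondrial aldehyde dehydrogenase, by 3.39, and MAGED2 by 3.28. NEFM, a neurofilament subunit that HEK293 cells express, had 242, 434, 696, 1851 and 4652 in fractions 18 to 22, against 115, 87.5, 119, 138 and 162 in fractions 13 to 17. Its fraction 22 was the highest of all by a wide margin.

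On the other side stood mRNAs of very short proteins. Of a list of 55 such genes outside the ribosome, 0 were higher and 47 lower, with a median of -1.96. USMG5 (chr10:103389050-103396475), now ATP5MK, a small subunit of the mitochondrial ATP synthase, had the lowest difference of all genes, -2.69. It had 132, 146, 93.4, 82.3 and 64.9 in fractions 18 to 22, against 1239, 1240, 779, 438 and 213 in fractions 13 to 17. Every fraction of 18 to 22 was below every fraction of 13 to 17. SEC61G (chr7:54752253-54759211), the small gamma subunit of the protein channel of the endoplasmic reticulum, had 45.3, 40.9, 31.1, 31.7 and 20.8 in fractions 18 to 22, against 261, 275, 237, 161 and 82.9 in fractions 13 to 17, a difference of -2.47. TMSB4X (chrX:12975110-12977223), thymosin beta-4, which binds free actin, had 111, 92.4, 78.7, 59.4 and 51.1 in fractions 18 to 22, against 779, 772, 498, 278 and 154 in fractions 13 to 17. The pools lay apart and the value declined at each step, for a difference of -2.46.

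The short mRNAs that were lower served unlike functions. COX17, a copper chaperone, differed by -2.42, POLR2K, a shared subunit of the RNA polymerases, by -2.41, and TOMM6 and TOMM7, of the mitochondrial import channel, by -2.35 and -2.24. LSM3, which binds U6 RNA, differed by -2.38, and OST4, of the oligosaccharyl transferase, by -2.34. The lower members also held the ubiquitin-like proteins SUMO2 (-1.79), SUMO3 (-2.07), NEDD8 (-1.98) and UBL5 (-1.80). SUMO2, the most abundant of the list, had 834, 619, 540.3, 459 and 406 in fractions 18 to 22, against 1922, 2479, 2319, 1873 and 1263 in fractions 13 to 17. Both pools were separate, with the highest value in fraction 14. The single member above 0 was SRP14, of the signal recognition particle, at 0.30, and its sign depends on the scaling and on the fractions kept. Its partner SRP9 was lower at -1.47. Other genes among the lowest differences were TMSB15B (-2.56), another thymosin, TBPL1 (-2.52), a relative of the TATA-binding protein, SS18L2 (-2.47), TMEM230 (-2.41), SCOC (-2.41), COMMD6 (-2.41) and SMIM8 (-2.41).

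**Figure D3:**
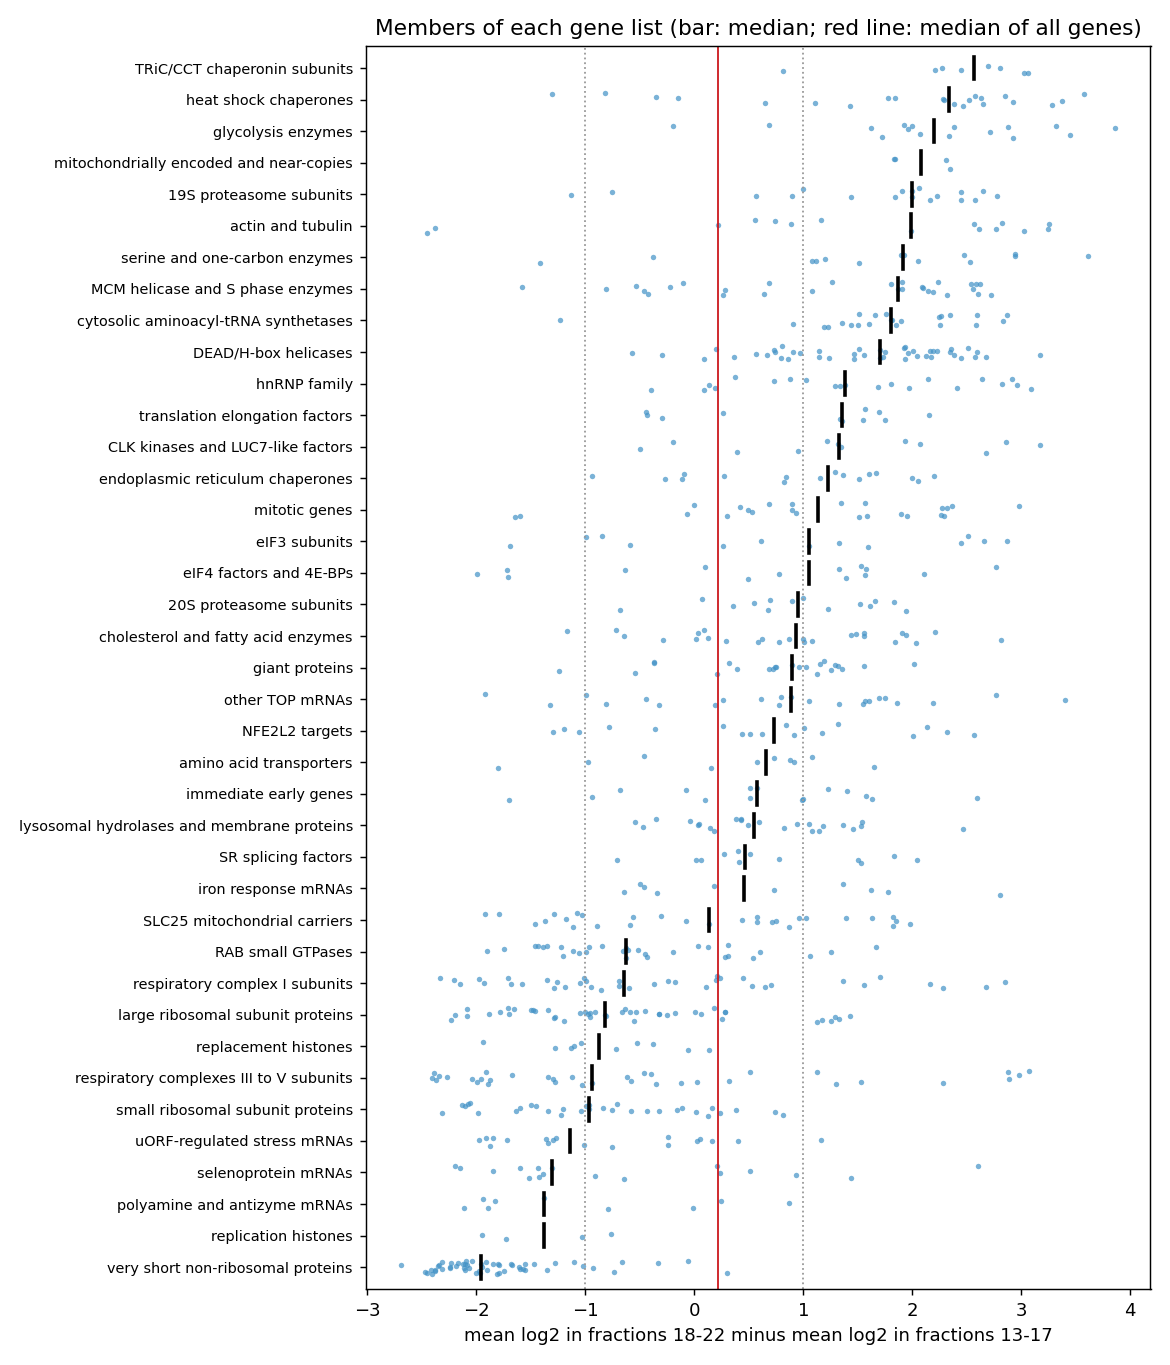
Difference of each member (points, horizontal axis, mean log2 in fractions 18 to 22 minus mean log2 in fractions 13 to 17) for the gene lists (vertical axis), with a black bar at each list's median, a red line at the median of all genes (0.22) and dotted lines at the size of the rule. The medians run from 2.57 for the TRiC/CCT subunits to -1.96 for very short proteins, and the points of the respiratory chain and of the ribosome spread across both sides.

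Ribosomal protein mRNAs, the largest TOP class, lay below the median of all genes as lists and spread widely inside them. Of the large subunit 5 of 46 members were higher and 17 lower, with a median of -0.82. The small subunit had 0 of 32 higher and 14 lower, with a median of -0.96. RPL39 had 1257, 1048, 969, 848 and 719.8 in fractions 18 to 22, against 7072, 7057, 5461, 3439 and 1902 in fractions 13 to 17, the lowest difference of the large subunit at -2.23. RPS29, the most abundant of the small subunit, had 9352, 7419, 7475, 5818 and 4881 in fractions 18 to 22, against 53750, 53340, 42340, 25560 and 14410 in fractions 13 to 17, with pools apart and a difference of -2.31. RPL41, which encodes one of the shortest proteins known in human cells, had 1247, 958, 923, 682 and 620.1 in fractions 18 to 22, against 12490, 5107, 3189, 2019 and 1586 in fractions 13 to 17. It fell steeply after fraction 13 and differed by -2.09. The members that were higher were RPL5 (1.43), RPL8 (1.33), RPL15 (1.29), RPL3 (1.25) and RPL4 (1.17). RPL5, which binds 5S RNA, had 3883, 5162, 7462, 7891 and 6680 in fractions 18 to 22, against 1758, 1834, 2148, 2526 and 3211 in fractions 13 to 17. The lowest of its fractions 18 to 22 was above the highest of 13 to 17. In the small subunit the top members were RPS9 (0.81) and RPS6 (0.74), a target of S6 kinase, and both had overlapping pools. Ribosomal protein genes have many processed pseudogenes, so that reads may be shared with them and single values are uncertain.

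Translation factors and other TOP mRNAs were on the opposite side of the median. Of the TOP list outside the ribosome 11 of 23 were higher and 2 lower, with a median of 0.89. EEF1A1, the elongation factor that brings tRNA, was the most abundant, with 17730, 23990, 36750, 45610 and 38840 in fractions 18 to 22, against 8329, 9854, 10230, 11600 and 13530 in fractions 13 to 17. All values of 18 to 22 were above those of 13 to 17, for a difference of 1.54. EEF2, the translocation factor, had 1334, 1671, 1907, 3638 and 6517 in fractions 18 to 22, against 583, 647, 733, 1061 and 973 in fractions 13 to 17 and differed by 1.69, and RACK1, a ribosome-bound scaffold, differed by 2.19. BTF3 and NACA encode partners in the nascent polypeptide-associated complex. BTF3 was higher at 1.61 and NACA lower at -1.92, with 1721, 1260, 1147, 919 and 872 in fractions 18 to 22, against 7334, 6021, 4477, 3208 and 2478 in fractions 13 to 17 for NACA. TPT1 and NPM1, abundant growth-related mRNAs, differed by 0.89 and 0.79 and met the rule in neither direction.

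The lists of translation initiation and elongation factors had members with differences of either sign. Over all genes 24.1% were higher and 17.3% lower. Of the eIF3 complex, which holds the small subunit ready for initiation, 7 of 13 were higher (53.8%) and 1 lower (7.69%), with a median of 1.05. EIF3I, EIF3D and EIF3B differed by 2.87, 2.66 and 2.45, while EIF3J was lower at -1.69 and the abundant EIF3F had -0.996. Of the eIF4 factors and 4E-BPs, which work at the cap, 5 of 14 were higher (35.7%) and 2 lower (14.3%, near the share over all genes), with a median of 1.05. PABPC1, the poly(A)-binding protein, differed by 2.77 and EIF4A1, the helicase, by 1.33. EIF4EBP1, the inhibitor of the cap-binding protein, was lower at -1.71. EIF4E itself had 23.1, 19.4, 15.1, 14.1 and 9.59 in fractions 18 to 22, against 159, 109.9, 62.4, 48.2 and 22.4 in fractions 13 to 17. Its difference was -1.999, but fractions 17 and 18 overlapped, so it did not meet the rule. Of the elongation factors 7 of 11 were higher and 0 lower (median 1.35), with EEF1B2, an exchange factor subunit, at -0.45.

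The pyrimidine run at the start was looked for across the genes, because TOP mRNAs lay on both sides. The run searched was C at the annotated first base followed by at least 4 bases that are each C or T, on the strand of the gene only. A promoter sequence was found for 6926 of the 8243 genes (84.0%), where any annotated start of the gene could hold the run. It was present in 108 of 1698 higher genes (6.36%), 124 of 1197 lower genes (10.4%) and 561 of all 6926 (8.10%). Outside the ribosomal and other TOP lists, 502 of 6848 genes held the run, with a median difference of 0.029, 104 higher and 104 lower. Of the ribosomal protein genes with a sequence, 47 of 63 held it, and these had a median difference of -0.91 with 0 higher and 18 lower, while the 16 without it had a median of -0.21 with 3 higher and 6 lower. In the other TOP list 12 of 15 held it, and these had a median of 0.79 with 4 higher and 2 lower, while the 3 without it had a median of 1.86 with 3 higher and 0 lower. These differences between members with and without the run were not tested. The 8 printed genes lay at each end of the comparison among ribosomal and other TOP genes with the run and only 1 promoter sequence. Genes on chromosome 8 were left out of this choice. The run had 19 bases in RPL39 and 5 in RPL41 among the lower genes, and 9 in RACK1 and 7 in EEF1A1 among the higher ones. A match describes the annotated sequence and not the start used in these cells. GC content of the first 50 bases had similar medians, 66.7% in higher genes, 66% in lower genes and 67% in all.

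Respiratory chain subunits encoded in the nucleus had members on both sides. In complexes III to V 7 of 35 were higher (20.0%) and 15 lower (42.9%), with a median of -0.94. Over all genes 24.1% were higher and 17.3% lower, so the higher share was near that over all genes and the lower share above it. ATP5B (now ATP5F1B), the catalytic beta subunit of the ATP synthase, had 278, 451, 1141, 2844 and 3842 in fractions 18 to 22, against 93.3, 106, 124, 153 and 191 in fractions 13 to 17. The pools were apart, and the difference was 3.07. ATP5E (now ATP5F1E), the small epsilon subunit of the same enzyme, had 142, 111, 118, 76.9 and 58.6 in fractions 18 to 22, against 842, 928, 647, 352 and 194 in fractions 13 to 17. That is the opposite order, with a difference of -2.39. In complex III, the core proteins UQCRC2 and UQCRC1 differed by 2.98 and 2.89, and the small hinge protein UQCRH, with 529.5, 419.7, 399.5, 325 and 254 in fractions 18 to 22, against 2829, 3272, 2503, 1526 and 870.4 in fractions 13 to 17, by -2.40. In complex I 5 of 38 were higher (13.2%) and 11 lower (28.9%), with a median of -0.65. Its members ran between NDUFA10 at 2.85 and NDUFB1 at -2.33. NDUFV1, the flavoprotein that takes electrons from NADH, differed by 2.68.

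Other mitochondrial groups had medians close to that of all genes. Of the mitochondrial ribosomal proteins 18 of 77 were higher and 15 lower, with a median of 0.13 whose sign depends on the scaling. These shares, 23.4% and 19.5%, were near the 24.1% and 17.3% over all genes. MRPL15 differed by 2.57, MRPL33 by -2.40, and MRPL37, the most abundant of the list, was lower at -1.21. Of the SLC25 carriers of the inner membrane 7 of 29 were higher and 5 lower (median 0.14, again with a sign that depends on the scaling). Their shares, 24.1% and 17.2%, were also near those over all genes. SLC25A6, an ADP/ATP carrier, differed by 1.39 and SLC25A39 by -1.92.

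The uORF, polyamine and selenoprotein lists had negative medians. Many of their mRNAs, though not all, are known for special control of their translation. Whether that control has any part in their position was not tested. The uORF list holds mRNAs with upstream open reading frames that limit translation of the main frame in unstressed cells. There 1 of 18 were higher and 8 lower, with a median of -1.14. ATF4 (chr22:39520559-39522686), the transcription factor of the integrated stress response, had 329, 293, 236, 197 and 204 in fractions 18 to 22, against 1961, 1408, 874, 591 and 390.2 in fractions 13 to 17. Each value of 18 to 22 was below each of 13 to 17, with a difference of -1.85. DDIT3, the factor CHOP, was low throughout, with 3.72, 2.19, 1.37, 1.19 and 1.09 in fractions 18 to 22, against 17.2, 11.1, 7.94, 5.57 and 3.95 in fractions 13 to 17, and differed by -1.72. IFRD1, PPP1R15A, CEBPG and ATF5 were lower as well, at -1.91, -1.27, -1.37 and -1.01. UCHL5, a deubiquitinase of the proteasome, was the higher one at 1.16.

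In the polyamine list 0 of 9 were higher and 5 lower, with a median of -1.38. OAZ1 (chr19:2269486-2273488), the antizyme whose full frame is read only after a ribosomal frameshift, had 719, 561, 542, 430.2 and 389 in fractions 18 to 22, against 3336, 3674, 2527, 1716 and 1044 in fractions 13 to 17. Both pools were apart, for a difference of -2.11, and its relative OAZ2 had -1.83. SAT1 and SMS, an acetylase and a synthase of polyamines, were lower at -1.94 and -1.89. AMD1 and ODC1, the decarboxylases, had differences of 0.87 and -0.01 with overlapping pools. The sign of ODC1 depends on the scaling and on the fractions kept.

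Selenoprotein mRNAs recode a UGA stop codon as selenocysteine. Of 17 members 2 were higher and 8 lower, with a median of -1.31. GPX1, a glutathione peroxidase, had 156, 129.5, 109, 92.8 and 76.3 in fractions 18 to 22, against 871, 861, 539.7, 356 and 224 in fractions 13 to 17 and differed by -2.19. The lower group also held GPX4 (-1.85), which protects membrane lipids, and SELENOH (-2.15). TXNRD2, the mitochondrial thioredoxin reductase, and SELENOO, a large mitochondrial protein, were higher at 2.60 and 1.44. Of the iron response list 4 of 10 were higher and 0 lower (median 0.46). ACO1, the iron regulatory protein 1, differed by 2.80. The ferritins, which carry an iron response element at the start of their mRNA, met the rule in neither direction, with FTH1 at -0.50 and FTL at -0.34, and the sign of FTL depends on the scaling.

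Replication histone mRNAs mostly lack a poly(A) tail. Of the replication histones 4 were compared, and 0 were higher and 2 lower (median -1.38). Replacement histones, which are polyadenylated, had 0 of 10 higher and 3 lower (median -0.88), with CENPA, the centromere histone, at -1.94. H2AFZ, the H2A.Z variant, had 1447, 955, 716, 625 and 537 in fractions 18 to 22, against 1224, 1732, 2084, 1980 and 1911 in fractions 13 to 17. Its fraction 18 reached into the range of 13 to 17, so it did not meet the rule at -1.13. Histone genes have near-identical copies, so single values are uncertain. ZNF genes, a large family of DNA-binding factors, were higher for 11 of 197 and lower for 40, with a median of -0.27 whose sign depends on the scaling. The lower share, 20.3%, was near the 17.3% over all genes, but the higher share, 5.58%, was below the 24.1% over all genes. Of the 197 ZNF genes, 140 lay below the median of all genes. Members ran between ZNF207 at 2.32 and ZNF32 at -2.14. RAB small GTPases, which direct vesicle traffic, had 2 of 31 higher and 8 lower (median -0.63), with RAB11B at 1.67 and RAB22A at -1.91.

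Of 23 giant proteins 2 were higher (8.7%) and 1 lower (4.35%), against 24.1% and 17.3% over all genes, with a median of 0.89. However, 16 of the 23 had their highest value in fraction 21 or 22. Of all genes, 12.6% had it in fraction 21 and 16.9% in fraction 22. FLNA, the actin crosslinker filamin A, had 118, 192, 166, 342 and 523 in fractions 18 to 22, against 82.4, 51.8, 81.3, 117 and 71.7 in fractions 13 to 17 and differed by 1.56. UBR4, a ubiquitin ligase, differed by 2.01. AHNAK, a scaffold protein among the longest of the list, was lower, with 24.8, 27.4, 21.7, 16.9 and 14.3 in fractions 18 to 22, against 61.5, 56.7, 60.6, 39.1 and 37.3 in fractions 13 to 17. Its pools did not overlap and its difference was -1.24. DYNC1H1, PRKDC and HUWE1, other very long frames, had 1.36, 1.29 and 1.19 with overlapping pools.

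**Figure D4:**
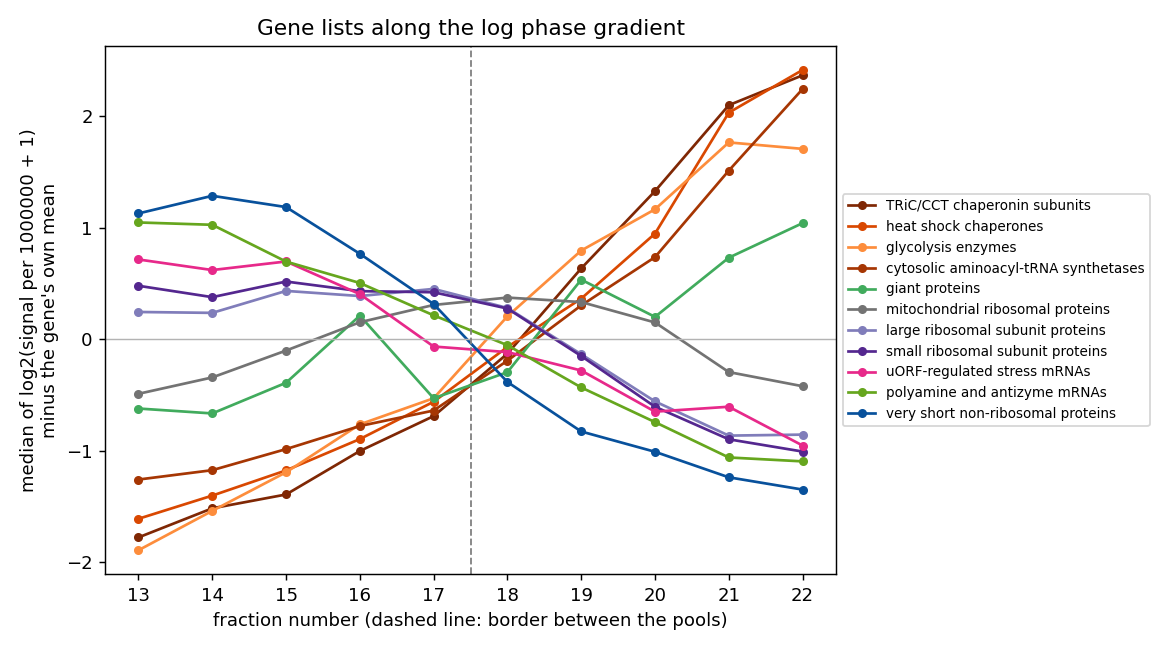
Median course of 11 gene lists along the log phase gradient (horizontal axis, fraction number; vertical axis, log2(signal per 1000000 + 1) minus each gene's own mean over the 10 fractions). Chaperone, glycolysis and synthetase lists cross from below to above 0 near the border of the pools, very short proteins cross the other way, and mitochondrial ribosomal proteins are highest in fraction 18.

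Genes highest in the middle gave small pool differences without being evenly spread. The genes named in this paragraph and the next one were chosen after their values were seen, among the 4816 genes with a mean of 20 or more. SRP14 had 747, 554, 331, 289.7 and 270.2 in fractions 18 to 22, against 134, 233, 352, 509.9 and 682 in fractions 13 to 17. It was highest in fractions 17 and 18, and its value at those fractions was well above that at either end. PFN1, the actin-binding profilin, showed the same course, with 2153, 1622, 1011, 802 and 879 in fractions 18 to 22, against 462, 744, 1089, 1521 and 2043 in fractions 13 to 17 and a difference of 0.22. The reverse course, lowest in the middle, occurred for ASS1, the argininosuccinate synthase, with 43.9, 56.1, 103, 181 and 210.3 in fractions 18 to 22, against 161, 107, 70.7, 52.97 and 43.9 in fractions 13 to 17 and a difference of 0.35.

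Values also moved inside the pools. Between fractions 18 and 22 the log2 change of the 4816 genes had a median of -0.50 and ran from -2.71 to 4.71. Its highest values were those of HSPA1A (4.71), RPA1 (4.66) and EIF5B (4.53). EIF5B, the factor that joins the ribosomal subunits, had 21.9, 37.6, 57.4, 171 and 526 in fractions 18 to 22, against 19.6, 14.2, 21.7, 27.2 and 24.9 in fractions 13 to 17. Its fraction 18 lay within the range of 13 to 17, fractions 21 and 22 far above it, and its difference was 1.96. Between fractions 13 and 17 the log2 change had a median of 0.32 and ran from -3.13 to 3.11. HNRNPA2B1, at 3.11, had 1300, 1846, 2516, 2360 and 2066 in fractions 18 to 22, against 81.9, 156, 253, 436 and 713 in fractions 13 to 17, and CNOT7, a deadenylase at -3.13, had 26.6, 29.01, 17.4, 12.3 and 9.83 in fractions 18 to 22, against 235, 131, 81.7, 55.7 and 26.04 in fractions 13 to 17. For CNOT7 the value had dropped before the border of the pools was reached.

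In the starved gradients the same fractions were set against each other for the same 8243 genes, as separate gradients with no shared fraction. Without serum 1986 genes were higher in fractions 18 to 22 than in 13 to 17 (24.1%) and 932 lower (11.3%), and the median difference was 0.53. Without amino acids 1205 were higher (14.6%) and 1076 lower (13.1%), with a median of 0.23. Both medians were above 0, so most genes had a positive difference in each starved gradient. The shares with a positive difference given next are to be read beside that. Fraction 22 had the lowest total signal of fractions 13 to 22 here too, 179014 without serum and 247998 without amino acids. Of the 1989 genes higher in log phase, 1981 (99.6%) had a positive difference without serum and 1902 (95.6%) without amino acids. Of the 1427 lower genes, 1374 (96.3%) had a negative one without serum and 1342 (94.0%) without amino acids. The higher sets of log phase and serum starvation shared 1366 genes, which are 68.8% of the serum-starved set and 68.7% of the log phase set. With amino acid starvation 833 were shared, 69.1% of the starved set and 41.9% of the log phase set. Of the lower sets, the genes shared with serum starvation were 85.7% of its set and 56.0% of the log phase set, and the 766 shared with amino acid starvation were 71.2% of its set and 53.7% of the log phase set. Across genes, the differences of log phase had r of 0.92 with those of serum starvation and 0.83 with those of amino acid starvation, from libraries made in the same way.

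The differences of several genes and lists are set side by side. PGK1 had a difference of 3.32 without serum and 3.17 without amino acids, against 3.86 in log phase. USMG5 had -2.82 and -2.05, against -2.69 in log phase. VIM had 1.27 and 0.52, against 3.40, and EEF1A1 had -0.27 and -0.73, against 1.54. ATF4 had -1.72 and -1.55, against -1.85. The median of the other TOP list was 0.15 without serum and -0.26 without amino acids, against 0.89 in log phase, and that of the hnRNP family was 2.40 and 2.20, against 1.39. None of these differences between gradients was tested, as each condition has 1 gradient.

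**Figure D5:**
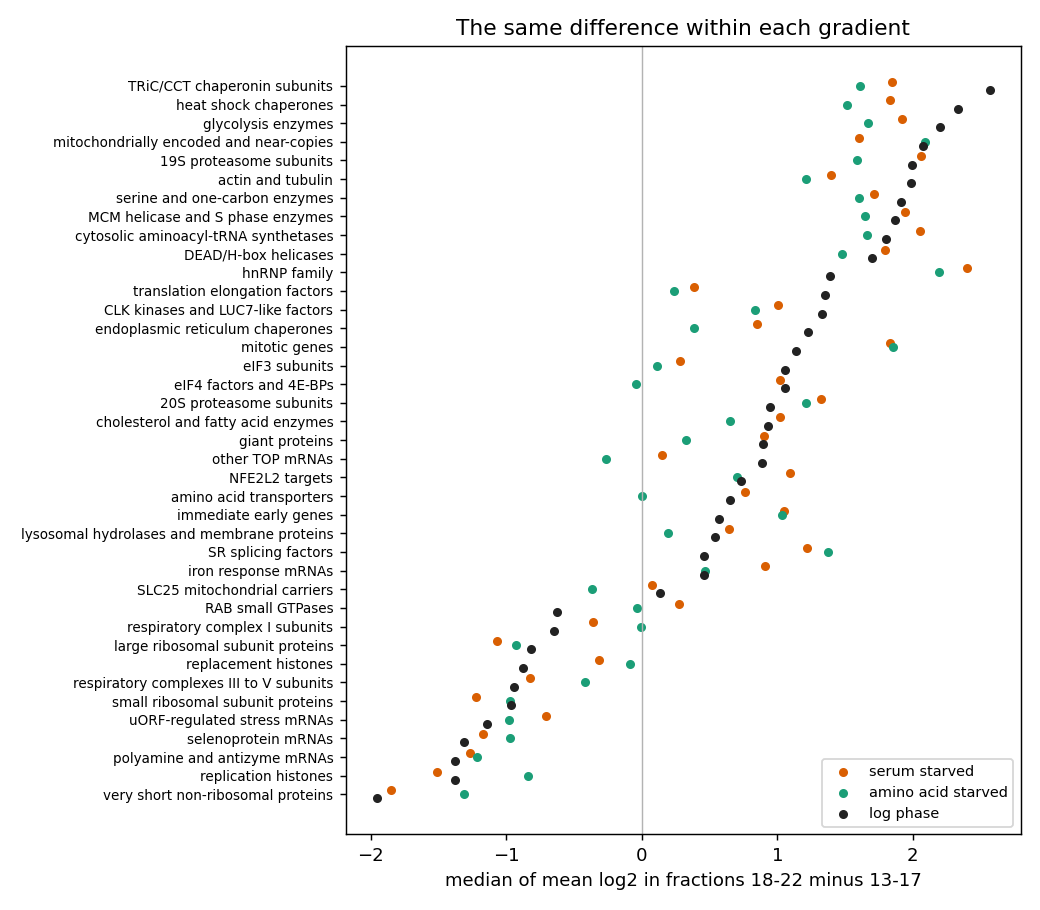
Median difference of each gene list (horizontal axis, mean log2 in fractions 18 to 22 minus mean log2 in fractions 13 to 17) in the serum-starved (orange), amino acid-starved (green) and log phase (black) gradients. Chaperone and glycolysis lists are positive and very short proteins negative in all 3, while the other TOP list is at -0.26 without amino acids and at 0.89 in log phase.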

How the data were processed

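Stranded, poly(A)-selected libraries of gradient fractions from HEK293 cells were processed by the submitters, whose processing notes name kallisto 0.44.0, sleuth 0.29.0 and hg38. The authors deposited 1 table of signal per gene and fraction (20 fractions, numbered 3 to 22, in each of 3 conditions); its columns sum to unequal totals, so each carries its own scale, not given in the sources used here. The 3 lysate samples were not analysed here. From 11104 rows, 29 ERCC spike-ins and 1 luciferase row were removed, each fraction was rescaled to 1000000, and log2 values with a pseudocount of 1 were compared between pools of 5 fractions (Python 3.11.15, numpy 2.4.6, pandas 2.3.3). Of the genes, 11039 had an entry in the GRCh38.p14 gene table. The calculation was tested on simulated data. With 1 gradient per condition, no test was run.

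The fraction pools, gene lists and naming rule were chosen with earlier results of these data known. Named genes are the 15 highest and 15 lowest differences among genes past the size rule and with a mean of at least 20, the most abundant, highest and lowest member of each list, and a set of well-known genes. Any other gene named was chosen after its values were seen. Another list, of snoRNA hosts and long noncoding RNAs, had 0 of 21 members in the table. Alternatives covered the pseudocount, filter, scaling, size rule, other pools and leaving out each fraction.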

Additional observations from a re-analysis of the deposited data

Results flagged for a closer look

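PSMD7, RAB1A, ARF4, PPP1R2 and WBP4 were lower in fractions 18 to 22 than in 13 to 17 in log phase and higher there without amino acids, with no overlap of the pools in either gradient. They were the 5 genes past the size rule in opposite directions, and no gene was so without serum. The difference between the gradients was not tested, since each condition has 1 gradient.

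ARF4, a small GTPase of the Golgi, had a difference of 1.42 without amino acids, against -1.58 in log phase. Without amino acids its values were 144, 172, 154, 122 and 110.2 in fractions 18 to 22, against 22.4, 30.3, 55.8, 85.4 and 107 in fractions 13 to 17. In log phase they were 104, 76.8, 66.4, 47.1 and 38.7 in fractions 18 to 22, against 146, 236, 224, 211 and 148 in fractions 13 to 17. The log phase values were highest in fraction 14 and the starved values in fraction 19. RAB1A, a GTPase of transport from the endoplasmic reticulum to the Golgi, had 1.44 without amino acids, against -1.46 in log phase. PSMD7, of the proteasome cap, had 1.26 without amino acids, against -1.14 in log phase. PPP1R2, an inhibitor subunit of protein phosphatase 1, had 1.08, against -1.80 in log phase, and WBP4, a splicing factor, had 1.17, against -1.74 in log phase.

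Of 100 sets of 5 fractions examined for a single fraction far from the others, none held one.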

How the results depend on the processing

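Of the 26 alternatives, those that change only the size rule cannot move a difference. Across the others none of the 112 named genes past the size rule changed the sign of its difference. The pools of these genes do not overlap by the rule itself, so only the scalings could have changed a sign. Keeping their sign under other pools, left-out fractions, filters or pseudocounts was fixed in advance and says nothing further. Of the 41 list medians, those of the SR factors (-0.01 to 0.89), mitochondrial ribosomal proteins (-0.34 to 0.56), ZNF genes (-0.51 to 0.15) and SLC25 carriers (-0.27 to 0.57) changed sign between scalings, as did the differences of TPI1, SRSF3, HNRNPA1, HNRNPAB, H1F0, SRP14, FTL and ODC1, which met the rule in neither direction. On the deposited values 2 genes were higher and 71 lower, where the unequal totals of the fractions make pools overlap, and the medians were -1.86 for the polyamine list, -1.33 for the large and -1.48 for the small ribosomal subunit. Scaled by the ERCC sum, 1246 were higher and 80 lower, with -0.68 for the uORF list, -0.83 for selenoproteins, -1.52 for very short proteins, -0.39 for the large and -0.54 for the small subunit. With a pseudocount of 5 the selenoprotein median was -0.98. Fractions 20 to 22 against 13 to 15 gave 2169 lower genes and medians of 3.03 for glycolysis, 3.42 for heat shock chaperones, 3.59 for TRiC/CCT, -1.49 for the uORF list, -1.91 for polyamines, -1.63 for selenoproteins and -2.41 for very short proteins. The neighbouring fractions 18 and 19 against 16 and 17 gave 522 higher and 333 lower genes, with 0.93 for glycolysis, 0.74 for heat shock chaperones, 1.05 for TRiC/CCT, -0.51 for the uORF list, -0.58 for polyamines, -0.52 for selenoproteins, -1.08 for very short proteins, -0.37 for the large and -0.41 for the small subunit. A size of 1.5 left 1282 higher and 695 lower. Leaving out each fraction in turn gave 1904 to 2520 higher genes and 1301 to 1762 lower genes. It also turned the sign for SRP14 (-0.025 to 0.561), SRSF3 (-0.143 to 0.221), ODC1 (-0.117 to 0.12) and H1F0 (-0.088 to 0.327).

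The planned reading by protein length was not run, as no table of protein sequences was used here. Read depth is unknown, fraction 22 has the lowest total signal, and 1 gradient per condition leaves the spread between cultures unmeasured. No paired analysis was possible because each condition has 1 gradient and the fraction numbers are positions, not replicates.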
